A study of Mus musculus with 3 samples.

Results

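The 4 JAK kinase genes and 5 genes of proteins that restrain JAK signalling were described in mouse T helper 1 (Th1) cells, CD4 T cells that secrete interferon gamma. The genes were Jak1, Jak2, Jak3, Tyk2, Cish, Socs1, Socs2, Socs3 and Ptpn2. They were matched by symbol to the gene identifiers of the deposited tables, and all 9 were found among 50600 genes. The data were 3 RNA sequencing libraries of 1 group, primary Th1 cells of strain C57BL/6NJ, numbered as biological replicates 1, 2 and 3 in the labels. According to the file headers the cells were taken at 48 h. No treatment, genotype change, age or sex is given for the group, and all libraries carry the same donor identifier. Separate animals or cultures are not stated in the labels, so any p-value here reflects the spread of these samples alone, and that spread may be technical.

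Cytokine receptors of this class have no kinase of their own. They hold JAK kinases at their inner tails, and a bound cytokine brings the kinases together so that they phosphorylate each other, the receptor and STAT transcription factors. STAT proteins then switch on genes that include Cish and the SOCS genes, whose products bind receptors or kinases and close a negative feedback loop. Ptpn2 encodes a phosphatase that removes phosphate from JAK and STAT proteins. In Th1 cells, interleukin-12 signals through JAK2 and TYK2, interferon gamma through JAK1 and JAK2, and interleukin-2 through JAK1 and JAK3.

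Because STAT proteins act on the feedback genes through the palindrome TTCNNNGAA, the RefSeq start-site windows of the members (GRCm38.p6) were searched for it. The motif covers both strands, being its own reverse complement in the fixed bases, and each window runs from 250 bases before to 50 after a start site. A window was searched for 7 of the 9 members, and 2 of these held the motif: Cish with 2 copies and Socs3 with 1. Of all 32851 windows in the table, 8.30% held it. The form with 4 bases between TTC and GAA was in 6.95% of all windows and in none of the 7. A match describes the letters only and says nothing of binding. The 30-base stretches with the matches are shown with the motif in capitals, Cish from the plus strand (chr9:107296654-107296683) and Socs3 from the minus strand (chr11:117969496-117969525). The first Cish copy begins at the start site and the next 11 bases on, and the Socs3 copy begins 154 bases before its start site.
Cish: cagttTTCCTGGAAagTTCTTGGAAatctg
Socs3: cagccTTCTTAGAAgggaggggggggaaag

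Levels are given as TPM, counts per gene length scaled to the same sum in each library, and as CPM, counts scaled to the same total in each library. A TPM can be compared between genes only as far as the gene length used is right. A CPM cannot be, since it takes no account of length. Replicate 1 held 4742025 counts, replicate 3 held 3543816 and replicate 2 only 50627. The members together took 3920, 32 and 1502 counts in replicates 1, 2 and 3. A count of 0 allowed up to 3 counts, or 59.3 CPM in replicate 2 against 0.633 and 0.847 CPM in replicates 1 and 3. Intervals cover counting error only. All 9 genes of the T cell marker list were above 1 TPM in every library. Cd8a, Lyz2, Itgam, Cd14 and Pax5, which mark CD8 T, myeloid or B cells, had no count in any library. Of the 6 CD8 and cytotoxic markers 4 were at 0; Cd8b1 had 21, 1 and 13 counts and Gzmb 11, 0 and 3, and the list summed to 10.2, 27.8 and 5.52 TPM. The summed level of the 7 myeloid markers was 109, 84.5 and 169 TPM, nearly all from Csf1r, whose exons lie 17.8% under those of opposite-strand genes. That of the 6 B cell markers was 104, 21.9 and 54.6 TPM, mostly Ighm. Their part in the members' levels was not tested. In bulk RNA, fewer cells that express a gene and less RNA per cell cannot be told apart.

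Jak2 was the most abundant of the 4 kinases and of all 9 genes in every library. Jak2, the kinase of the interferon gamma and interleukin-12 receptors (chromosome 19, 29251828 to 29313080, plus strand, mm10), stood at 143 TPM in replicate 1 (1541 counts, exact 95% interval 136 to 150), 140 in replicate 2 (17 counts, 81.3 to 223) and 59.0 in replicate 3 (585 counts, 54.3 to 64.0). Replicates 1 and 2 were alike and replicate 3 was the lowest. It made up 59.0%, 79.2% and 57.9% of the summed TPM of the kinases, and 96.8%, 96.9% and 95% of protein-coding genes were below it.

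Jak1, shared by interleukin-2 family, interferon and gp130 receptors (chromosome 4, 101152367 to 101265282, minus strand), stood at 64.6, 22.9 and 25.9 TPM in replicates 1, 2 and 3 on 999, 4 and 369 counts. Replicate 1 was high, and the interval of replicate 2 (6.23 to 58.5 TPM) took in the level of replicate 3. Jak1 was below Jak2 in 3 of 3 libraries, with a log2 TPM ratio of -1.15, -2.61 and -1.19 in replicates 1, 2 and 3. The exact 95% interval was -1.26 to -1.03 in replicate 1 and -4.64 to -0.99 in replicate 2, and in replicate 3 it also excluded 0.

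Jak3, which pairs with the common gamma chain (chromosome 8, 71676296 to 71690575, plus strand), stood at 23.7, 7.71 and 11.3 TPM on 272, 1 and 119 counts. Tyk2, the partner of interleukin-12 receptor beta 1 and the type I interferon receptor (chromosome 9, 21104068 to 21131243, minus strand), was the lowest kinase at 11.2, 6.01 and 5.76 TPM on 165, 1 and 78 counts. The order Jak2, Jak1, Jak3, Tyk2 by TPM was the same in all 3 libraries. In replicate 2 the order of Jak1 and Jak3 was within counting error, with a log2 interval of -1.77 to 7.19. Jak3 was above Tyk2 by a log2 ratio of 1.08 in replicate 1, with an interval of 0.80 to 1.37. In replicate 3 the ratio was 0.97, with a lower bound of 0.54. Replicate 2 had 1 count of each, so their order there follows from gene length alone. Jak3 shares 404 exonic bp (7.55%) with Insl3 on the same strand, a gene with 2, 0 and 2 counts.

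By the deposited gene lengths the phosphatase gene Ptpn2 was the highest of the 5 brakes in replicates 1 and 3. In replicate 2 its 3 counts against 1 of Socs1 left the order open to counting error, with a log2 interval of -3.41 to 5.94. Ptpn2 (chromosome 18, 67665511 to 67724595, minus strand) stood at 62.2, 39.6 and 27.8 TPM in replicates 1, 2 and 3 on 416, 3 and 171 counts. It made up 51.8%, 38.3% and 55.2% of the summed brake TPM. With these lengths its level was within counting error of that of Jak1: the log2 ratio of Ptpn2 to Jak1 was -0.05, 0.79 and 0.10 in replicates 1, 2 and 3, with intervals of -0.22 to 0.11, -1.98 to 3.36 and -0.17 to 0.37. Jak2 was above Ptpn2 in all 3, by 1.20 (1.05 to 1.36), 1.82 (0.03 to 4.23) and 1.09 (0.84 to 1.34).

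The feedback genes fell into a higher and a lower pair when counts were divided by the deposited exon length. Cish, the gene of CIS, a brake on STAT5 and T-cell receptor signals (chromosome 9, 107296026 to 107302784, plus strand), stood at 26.0, 25.7 and 8.93 TPM on 357, 4 and 113 counts. Socs1, whose product inhibits JAK kinases directly and restrains interferon gamma signals (chromosome 16, 10783808 to 10785536, minus strand), stood at 25.3, 33.8 and 10.8 TPM on 66, 1 and 26 counts. For both, replicate 3 had the lowest value. The intervals of replicate 2, 7.01 to 65.9 TPM for Cish and 0.86 to 189 TPM for Socs1, took in the level of replicate 3. The log2 ratio of Socs1 to Cish was -0.04 in replicate 1, with an interval of -0.44 to 0.34, and 0.28 in replicate 3, with one of -0.40 to 0.90, so their order was not resolved.

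Socs2, a brake on growth hormone and STAT5 signals (chromosome 10, 95385362 to 95417180, minus strand), stood at 4.41, 4.33 and 1.92 TPM on 90, 1 and 36 counts. Socs3, which binds gp130 and restrains STAT3 (chromosome 11, 117966079 to 117970047, minus strand), was the lowest member. It had 14, 0 and 5 counts, or 2.26 TPM in replicate 1, with an interval of 1.24 to 3.79, and 0.88 TPM in replicate 3, with one of 0.28 to 2.05. The 0 in replicate 2 allowed up to 42.8 TPM and says nothing about its level there. With the deposited lengths Socs1 was above Socs3 11.2-fold in replicate 1 and 12.3-fold in replicate 3, and Cish 11.5-fold and 10.2-fold. With the longest protein-coding transcript as length, Socs1 was 4.14-fold and 4.56-fold above Socs3, and Cish 22.8-fold and 20.2-fold. Cish and Socs3 are the 2 members whose start-site sequences are printed above.

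**Figure D1:**
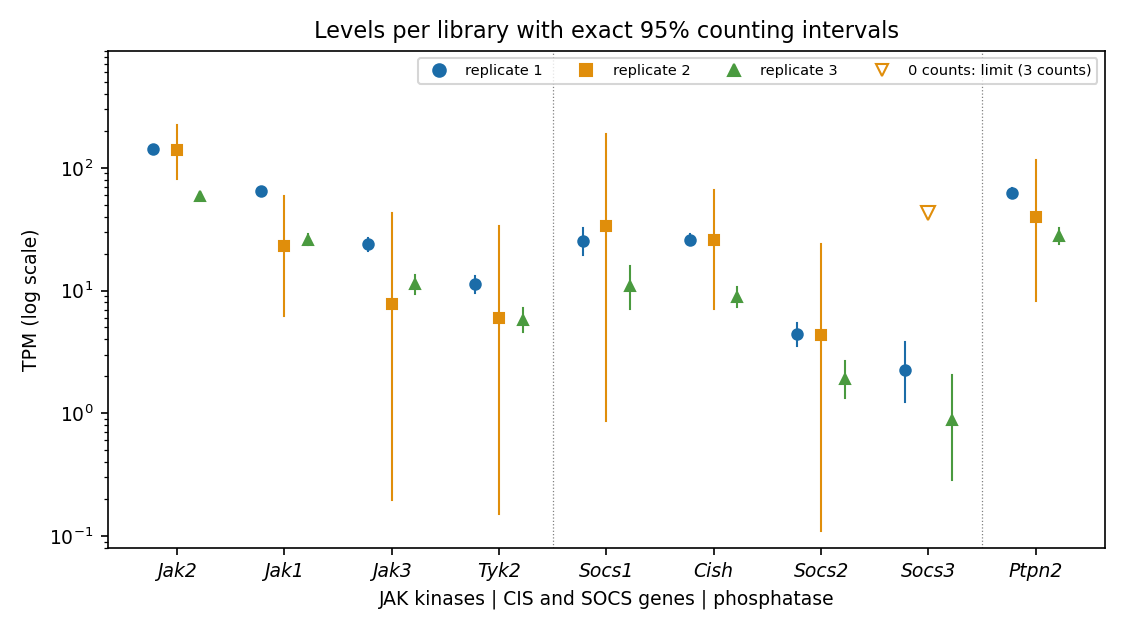
TPM of each member (log axis) in replicates 1 (circles), 2 (squares) and 3 (triangles), with exact 95% counting intervals as bars; the open triangle is the limit of 42.8 TPM that 0 counts of Socs3 allow in replicate 2. Jak2 is the highest member in every library, and the bars of replicate 2 are wide because it rests on 1 to 17 counts for the members it detects.

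In all, 8 of the 9 members reached 1 TPM in every library, against 14.8% of all genes and 29.4% of protein-coding genes. The exception was Socs3. In replicate 2 any single count passed this floor, since 1 count gave 4.33 TPM for Socs2 and 33.8 TPM for Socs1. Jak3, Tyk2, Socs1 and Socs2 each passed there on 1 count. The same limit holds for the other pathway genes listed below. In replicates 1 and 3 alone, 8 members also reached 1 TPM. Of the 8 neighbouring pairs in the order by mean TPM (Jak2, Ptpn2, Jak1, Socs1, Cish, Jak3, Tyk2, Socs2, Socs3), 5 had a ratio whose interval excluded 0 in replicate 1, 1 in replicate 2 and 4 in replicate 3. With the deposited lengths, Ptpn2 and Jak1, Socs1 and Cish, and Cish and Jak3 did not differ beyond counting error in any library. With transcript lengths all 3 pairs did in replicate 1. Tyk2 and Socs2 went the other way. Their log2 ratio was 1.35 and 1.59 in replicates 1 and 3 with the deposited lengths, both intervals excluding 0. With transcript lengths it was -0.25 (-0.62 to 0.14) and -0.004 (-0.59 to 0.61). In all, 7, 0 and 6 of the same 8 pairs then differed in replicates 1, 2 and 3. With 3 libraries the smallest p of the exact two-sided sign-flip test is 0.25, and no p adjusted over the 26 pairs compared was below 0.36.

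The kinases together stood above the brakes in every library. Summed over the 4 kinases, the level was 243, 176 and 102 TPM in replicates 1, 2 and 3, against 120, 104 and 50.3 TPM over the 5 brakes. The kinases were 2.02-fold, 1.70-fold and 2.03-fold above, a mean log2 ratio of 0.93 ± 0.14 (SD, n = 3). This excess was present only with Jak2 in the sum. Without Jak2 the log2 ratio was -0.27, -1.50 and -0.23, with the brakes above the other 3 kinases in 3 of 3 libraries, an alternative added after the values were seen. Against the CIS and SOCS genes alone, without Ptpn2, the kinases were 4.19-fold, 2.76-fold and 4.52-fold above. By class medians the sign differed between libraries: 0.81 in replicate 1, -0.75 in replicate 2 and 1.06 in replicate 3. The members were chosen with earlier results of these data known, so no p is given for these sums.

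**Figure D2:**
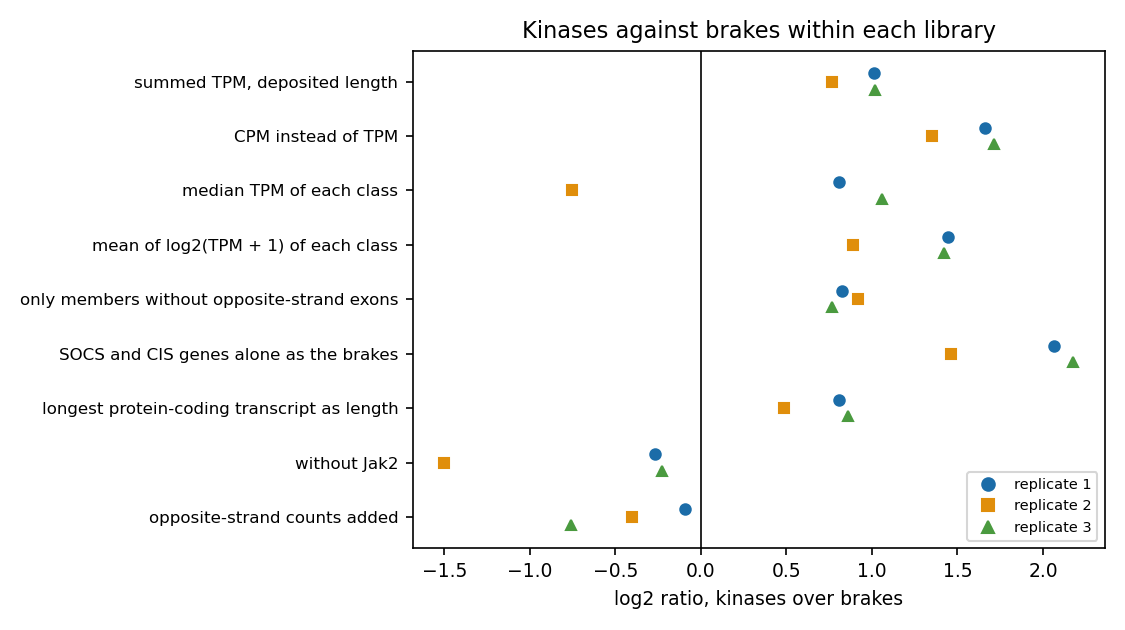
Log2 ratio of kinases to brakes in each library (markers as replicates 1, 2 and 3) under the setting named on each line; 0 is an equal level. The ratio of summed TPM lies between 0.77 and 1.02 and falls below 0 in all libraries without Jak2 or with opposite-strand counts added.

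The order among the feedback genes depended on the gene length used. The deposited length counts every exon of any transcript, which made it 9531 bp for Socs2 against 2222 bp for its longest protein-coding transcript in GENCODE M21, and 6419 against 2850 bp for Cish. For Socs1 the deposited model is the shorter, at 1220 against 2908 bp. With the transcript lengths, mean TPM went from 3.55 to 12.7 for Socs2, from 20.2 to 37.8 for Cish and from 23.3 to 8.13 for Socs1. The mean log2 ratio of Socs1 to Socs2 turned from 2.66 to -0.69 and that of Socs1 to Cish from 0.21 to -2.21. The log2 ratio of Cish to Jak3 became 0.89 in replicate 1 (interval 0.66 to 1.12) and 0.42 in replicate 3 (0.04 to 0.80). That of Ptpn2 to Jak1 became -0.38 in replicate 1, with an interval of -0.55 to -0.22, and in replicate 3 its interval still held 0. In replicate 2 Cish, at 48.3 TPM, stood above Ptpn2, at 38.7. Jak2 remained the highest and Socs3 the lowest member in every library under either length. The counts still come from the deposited exons, so a short length overstates a gene whose fragments lie in the other exons. For Socs1 the error goes the other way: counts taken over 1220 bp were divided by 2908 bp, which understates it. The fall of Socs1 to 8.13 TPM and the sign changes of its ratios rest in part on this mismatch.

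**Figure D3:**
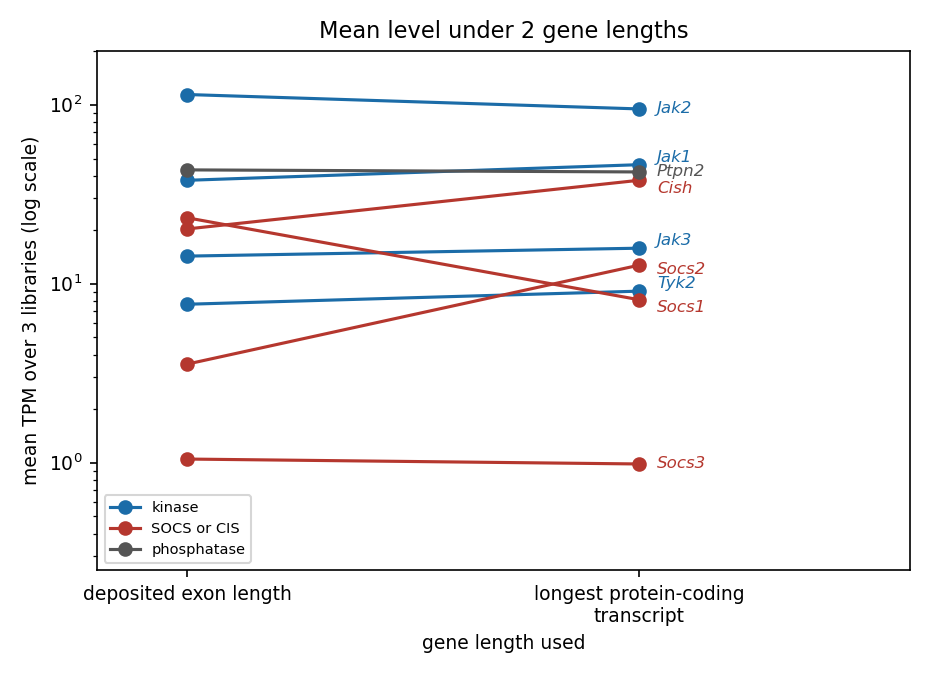
Mean TPM over the 3 libraries (log axis) of each member with the deposited exon length (left) and the longest protein-coding transcript (right), joined by lines. The lines of Socs1 and Socs2 cross, from 23.3 and 3.55 TPM to 8.13 and 12.7 TPM, while Jak2 stays at the top. The Socs1 counts come from its 1220 bp of deposited exons on both sides.

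Antisense genes over Cish and Tyk2 took more counts than Cish and Tyk2 themselves in every library. The tables were counted with strand setting 1, which assigns a fragment to a gene on the strand of its first read; the kit was not given in the labels or headers used. Gm17041 (chromosome 9, 107300380 to 107301838, minus strand), an antisense gene of 479 bp, lies wholly within Cish exons. By the M21 coding transcript it faces exon 3, with 321 bp of coding sequence and 158 bp of 3' UTR. Gm17041 had 2928, 32 and 3564 counts in replicates 1, 2 and 3, against 357, 4 and 113 for the whole of Cish. Per kb it was 110-fold, 107-fold and 423-fold above Cish.

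Gm17040, a pseudogene that shares 261 bp with the deposited Cish exons, 103 of them in exon 1 of the coding transcript, had 972, 4 and 1215 counts. In all, 11.5% of the deposited Cish length lies under opposite-strand exons. The antisense gene 1700084C06Rik, which shares 554 bp (8.07%) with the deposited exons of Tyk2 and none with exons of its main coding transcript, had 1693, 14 and 1960 counts against 165, 1 and 78 for Tyk2. Jak1 shares 4 bp with Raver2, which had 12, 0 and 13 counts. The other 6 members share no exonic position with the other strand.

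**Figure D4:**
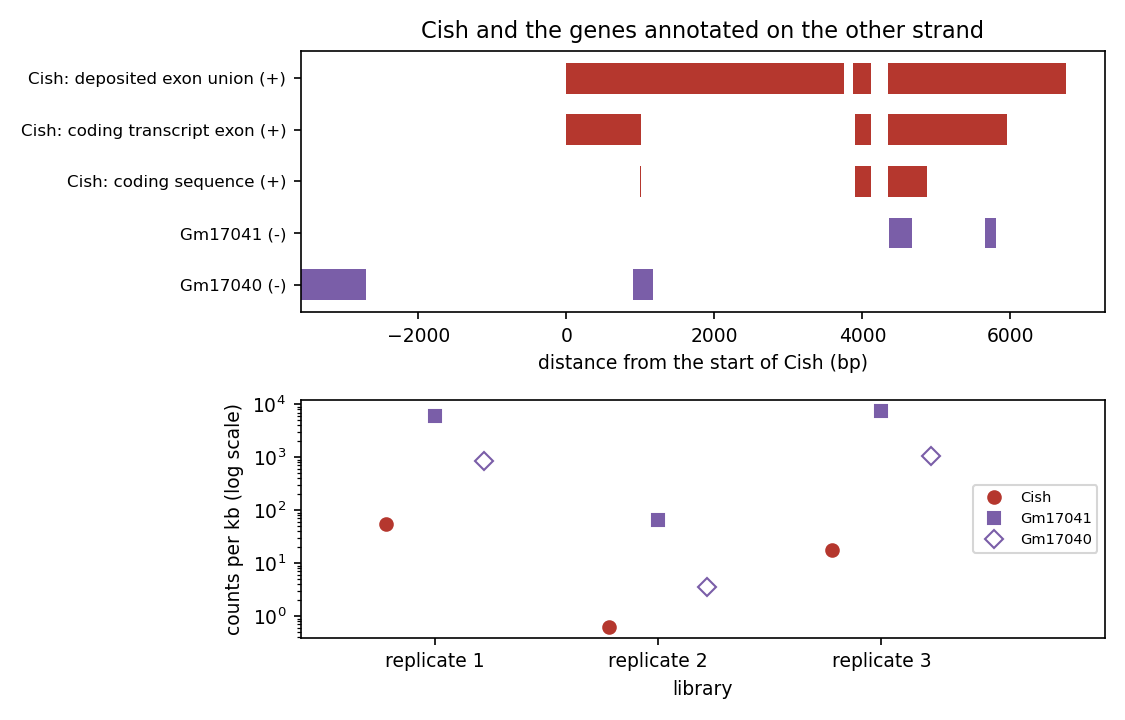
Top, exons of Cish (plus strand) and of Gm17041 and Gm17040 (minus strand) by distance in bp from the start of Cish; bottom, counts per kb (log axis) of the same genes in each library. Gm17041 faces the coding part of the last Cish exon and has 6113 counts per kb in replicate 1, against 55.6 for Cish.

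Whether strand setting 1 matches the kit was not tested, and this bears on every gene of the tables, the 9 members included. All levels given are levels as counted. As an alternative added after the values were seen, each partner's count was shared out by the part of its length that overlaps, as if covered evenly, and added to the member. With it the ratio of kinases to brakes turned to -0.09, -0.40 and -0.76 in replicates 1, 2 and 3. Restricted to the 6 members without any opposite-strand exon, it was 0.83, 0.92 and 0.76.

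By library totals replicate 3 was lower than replicate 1 for every member, although for Socs3, with 14 and 5 counts, the interval of -2.89 to 0.49 held 0. Scaled on genes without opposite-strand exons, an alternative added later, Jak3 (0.05) and Tyk2 (0.16) were above 0 and the other 7 below. In log2 CPM by totals the difference ranged from -1.24 for Cish (exact 95% interval -1.56 to -0.93) to -0.66 for Tyk2 (-1.07 to -0.26). All 8 members with at least 50 counts were below 0, against 74.7% of all genes of that depth and 94.8% of those without opposite-strand exons. Their median was -0.91, beside -0.72 over all 10019 genes and -0.84 over the 5857 genes without opposite-strand exons, so the shared direction was that of the background. Of the 9 members, 7 lay within the quartiles of genes without overlap (-1.04 and -0.64); the values of Cish and Socs3 lay below them, with intervals that reached into them. The partners went the other way, at 0.70 for Gm17041, 0.74 for Gm17040 and 0.63 for 1700084C06Rik, near the median of 0.78 for genes with 90% or more of their length under opposite-strand exons.

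**Figure D5:**
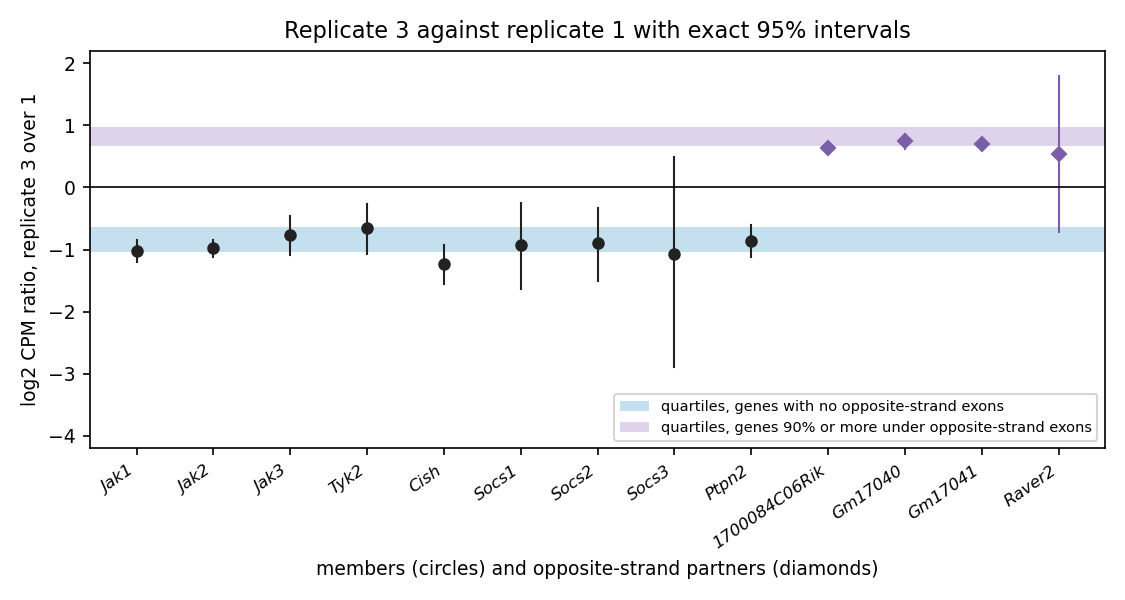
Replicate 3 over replicate 1 as a log2 CPM ratio for the members (circles) and their opposite-strand partners (diamonds) with exact 95% intervals; bands are the quartiles of genes without and with 90% or more opposite-strand exons. Members lie between -1.24 and -0.66, while the 3 partners of Cish and Tyk2 lie between 0.63 and 0.74.

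Members were tested for variation between the 3 libraries beyond counting error by a chi-square test over all 7406 genes kept, scaled with edgeR's TMM. Of the 8 members kept, 4 varied at a Benjamini-Hochberg adjusted p under 0.05, against 63.2% of all genes tested. These were Jak2 (adjusted p = 2.5e-12), Jak1 (5.1e-10), Cish (6.7e-06) and Ptpn2 (0.011). In TPM scaled by TMM, replicate 3 was at 75.1, 33.0, 11.4 and 35.3 for these genes, against 133, 60.0, 24.1 and 57.8 in replicate 1. The unscaled TPM, which the test did not use, lay further apart, at 59.0, 25.9, 8.93 and 27.8 against 143, 64.6, 26.0 and 62.2. Jak3, Socs1, Socs2 and Tyk2 did not pass (adjusted p 0.098 to 0.53), and Socs3 was not kept. These 4 had 66 to 272 counts in replicate 1, against 357 to 1541 for the 4 called. With TMM the log2 ratio of replicate 3 to 1 was -0.47 for Socs1 and -0.45 for Socs2, against -0.41 for Ptpn2. Not passing therefore does not show a steadier level. The number of members called depended on the scaling. It was 8 with library totals (88.4% of all genes) and 1, Jak1 (adjusted p = 0.023), when TMM factors came from genes without opposite-strand exons (38.9%). It was 3 with DESeq2 size factors (53.8%), 4 of 9 without the filter on low counts (30.6%) and 3 without replicate 2 (37.9%). Ptpn2 was the call lost both times (adjusted p = 0.089 with DESeq2 size factors and 0.30 without replicate 2). The number was 0 by the same chi-square test without replicate 1 (9.47% of all genes) and 0 without replicate 3 (3.65%), where 0 and 1 members had an unadjusted p under 0.05. Both of those fits rest on replicate 2, with 32 counts over the members.

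The receptor chains that hold each kinase differed in level from it. Il2rb, the beta chain of the interleukin-2 receptor, which binds JAK1, was above Jak1 in 3 of 3 libraries by the deposited lengths, at 94.8, 104 and 44.3 TPM. The log2 ratio of Jak1 to Il2rb was -0.55, -2.18 and -0.77, with intervals of -0.70 to -0.40, -4.40 to -0.21 and -1.01 to -0.53. With transcript lengths Jak1 was above Il2rb in replicates 1 and 3, by 0.60 (0.45 to 0.75) and 0.38 (0.14 to 0.62), and not in replicate 2 (-1.03). The common gamma chain gene Il2rg (58.5, 34.6 and 27.8 TPM) was above Jak3, with a log2 ratio of Jak3 to Il2rg of -1.30 in both deeper libraries, with intervals of -1.54 to -1.06 and -1.67 to -0.93. The interferon gamma receptor went the other way. Jak2 was 20.3-fold, 11.2-fold and 22.7-fold above Ifngr2, the chain it binds (7.05, 12.5 and 2.60 TPM); replicate 2 had 1 count of Ifngr2, which gave a log2 interval of 0.81 to 8.87. Jak1 was 4.10-fold and 3.83-fold above Ifngr1 in replicates 1 and 3.

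For the interleukin-12 receptor, Tyk2 was below its chain Il12rb1 (51.0, 20.1 and 25.1 TPM), with a log2 ratio of -2.18 in replicate 1, with an interval of -2.45 to -1.92, and -2.12 in replicate 3, with one of -2.52 to -1.74. Jak2 was 12.6-fold, 6.41-fold and 3.84-fold above Il12rb2 (2 counts in replicate 2, log2 interval 0.61 to 5.84), whose exons lie 40.0% under opposite-strand exons. Of the 10 chains that bind JAK1, 7 reached 1 TPM in every library, led by Il21r (125, 186 and 67.5 TPM), Il2rb and Il4ra. Of the 4 listed for JAK2, 2 did, and Il23r and Csf2rb had at most 3 counts in any library. Of the 3 for TYK2, Il12rb1 and Il10rb did; Il10rb rested on 4 counts in replicate 2.

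Other inhibitors of the pathway were set beside the members. Of the 4 further SOCS genes, Socs4 (14.3, 12.0 and 6.57 TPM) and Socs7 (11.1, 17.1 and 4.40 TPM) reached 1 TPM in every library, and Socs5 and Socs6 had 53 counts or fewer. Of 10 other phosphatases and inhibitors, 6 did. Ptpn6, the gene of the phosphatase SHP-1, led them at 290, 206 and 129 TPM, followed by the membrane phosphatase Ptprc (CD45; 107, 99.2 and 51.1 TPM) and Ptpn1, the closest relative of Ptpn2 (46.4, 44.8 and 21.5 TPM). The log2 ratio of Ptpn2 to Ptpn1 was 0.42, -0.18 and 0.37, with intervals of 0.23 to 0.61, -2.80 to 2.05 and 0.08 to 0.66. With transcript lengths the interval excluded 0 in replicate 1 only, at 0.26 (0.07 to 0.44). The PIAS genes, whose products inhibit STAT proteins, lay lower, at 16.1 TPM or less.

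Every one of the 7 STAT genes was at 1 TPM or more in all libraries, with medians of 37.0, 29.1 and 18.0 TPM. Stat6 (102, 65.7 and 56.9 TPM), Stat3 and Stat5a had the highest means. Of the 21 cytokine genes that act through these kinases, 5 reached 1 TPM in every library and 5 had no count in any. Il2 (861, 830 and 352 TPM), Il3 and Csf2 had the highest means. Over all 80 listed pathway genes other than the members, 46 were at 1 TPM or more in all 3 libraries, and 61 were so in replicates 1 and 3. Replicate 3 was below replicate 1 in CPM for 57 of the 59 with at least 50 counts, with a median log2 ratio of -0.82. Il12rb2 (0.74) and Pias4 (0.06) were the 2 others.

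The genes nearest in level to Jak2 over the 3 libraries were Actr3, Tfdp1 and Ruvbl1. Actr3 is an actin-nucleating subunit (141, 152 and 60.5 TPM), Tfdp1 a partner of E2F factors and Ruvbl1 an ATPase of chromatin complexes. Their distances in log2(TPM + 1) were 0.13 each, among 4084 coding genes with 1 TPM in every library and no opposite-strand exons. Nearest to Ptpn2 were Psmg2, a proteasome assembly chaperone (66.2, 39.0 and 27.3 TPM; distance 0.094), Snrnp200, a spliceosomal helicase (0.12), and Pkp4, a junctional protein (0.13). The distance compares levels without centring them, so it finds genes of like level in each library. With 3 libraries and few counts in replicate 2, this likeness is a description only.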

How the data were processed

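RNA of Th1 cells was measured in 3 libraries. Per the file headers, the deposited values are raw fragment counts per gene from featureCounts 1.4.6-p4, with both ends mapped, strand setting 1, exons summed by gene identifier on GENCODE M13, and alignments named star2. The labels name mm10. For the aligner's version and the kit, the sources used here name none. The labels call the assay total RNA-seq but name a library protocol for poly(A)+ RNA. Each table also gives the exonic length of the gene.

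CPM, TPM, exact Poisson and conditional binomial 95% intervals and exon overlaps were computed here from counts, lengths and coordinates. Symbols matched by identifier for 50376 of 50600 genes. Transcript lengths, biotypes and coding features came from GENCODE M21, a later release on the same assembly, and start-site windows from RefSeq. Library totals were 4742025, 50627 and 3543816 counts. A single group leaves no contrast for the quasi-likelihood test of edgeR. The chi-square test (2 degrees of freedom) used TMM factors and filterByExpr of edgeR 4.0.16, and DESeq2 1.42.0 gave other size factors. edgeR's common biological coefficient of variation was 0.341, and its trend at the 8 members kept 0.288 to 0.393. The chi-square test was tried on simulated data over 7406 genes with changes in replicate 3. The simulated counts held counting error alone, which is what the test assumes, so a low share of unchanged genes called was built in. Only genes whose counts totalled 100 or more were given a change. The test called 99.0% of genes changed 2-fold, 100% of those changed 4-fold and 0.28% of unchanged genes. The share called at lower totals, as for Socs1 with 66, 1 and 26 counts in replicates 1, 2 and 3, was not tested. Whether the simulated shares hold at the spread of the real libraries was not tested either. Python 3.11.15 and R 4.3.3 were used.

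The members, gene lists, pairs and tests were chosen with earlier results of these data known. Named genes were all members, up to 3 genes of each other list by mean TPM, and genes of the fixed pairs. Overlap partners and the 3 nearest genes in level were also named. Socs5, Csf2rb, Pias4, the PIAS genes as a group, Cul5, Rbx1 and Insl3 were named after their values were seen, as were markers at 0. Some listed genes are not reported here.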

Additional observations from a re-analysis of the deposited data

How the results depend on the processing

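The mean log2 ratio of summed kinase to summed brake TPM (0.93) kept its sign in 9 of 11 alternatives. It was 1.58 in CPM, 0.37 by class medians, 1.25 by means of log2(TPM + 1), 1.90 against CIS and SOCS genes alone and 0.72 with transcript lengths, and 0.89 to 1.02 leaving out each replicate. It turned to -0.67 without Jak2 and to -0.42 with opposite-strand counts added in proportion to shared length, both added after the values were seen. The number of members that varied between libraries (4) was 8 with library totals, 1 with scaling from genes without opposite-strand exons, and 0 to 3 leaving out each replicate. The number at the detection floor in every library (8) was 4 at 10 TPM. The members' median of replicate 3 against replicate 1 in log2 CPM (-0.91) was -0.46 with TMM, -0.35 with DESeq2 size factors and -0.095 with scaling from genes without opposite-strand exons, the last added after the values were seen; these move the median of all genes from -0.72 to -0.26, -0.16 and 0.10. Of the 26 pairs, 19 kept their sign in every alternative. In CPM, which ignores length, the log2 ratio turned to -2.19 for Socs1 to Cish, -0.31 for Socs1 to Socs2, -0.62 for Ptpn2 to Ptpn1, 0.97 for Tyk2 to Socs1, 0.93 for Jak1 to Ptpn2 and 0.21 for Jak1 to Il2rb. With transcript lengths, also added, it turned to -2.21 for Socs1 to Cish, -0.69 for Socs1 to Socs2, 0.24 for Tyk2 to Socs1 and 0.050 for Jak1 to Ptpn2; it went from -1.17 to -0.02 for Jak1 to Il2rb, above 0 in both deeper libraries, and from -0.51 to -1.27 for Jak3 to Cish. For Jak3 to Cish it ran from -0.93 to 0.10 leaving out each replicate, above 0 without replicate 2. No paired analysis was possible because the libraries form 1 group. Replicate 2, with 32 counts over all members, limits every value that uses it.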

Other observations

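The CIS and SOCS proteins act as adaptors of a ubiquitin ligase, and the genes of its other parts were present beside them. Elob, the elongin B adaptor, stood at 250, 325 and 138 TPM in replicates 1, 2 and 3, Rnf7, the RING subunit that pairs with cullin 5, at 66.5, 93.3 and 26.7 TPM, and Eloc, elongin C, at 57.6, 0 and 26.0 TPM. All 5 genes of this list reached 1 TPM in both replicates 1 and 3, and 2 did in every library; Eloc, Cul5 and Rbx1 had no count in replicate 2, so their levels there were below detection at its depth.

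Known targets of STAT5 were mostly detected. Of the 8 listed, 6 reached 1 TPM in every library, led by Il2ra, the alpha chain of the interleukin-2 receptor (184, 217 and 86.3 TPM), Myc (233, 137 and 109 TPM) and Ccnd2, a cyclin (72.2, 79.0 and 31.8 TPM). The medians were 63.6, 69.0 and 31.7 TPM, against 25.3, 25.7 and 8.93 TPM for the 5 brakes. No test was made between the 2 lists, and the brakes include Cish and the SOCS genes, which STAT proteins also switch on.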
